A study of Mus musculus with 6 samples.

Results

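Chemokines are small secreted proteins, and the genes described here are the chemokine ligands and their receptors, measured in liver. They were taken by symbol: Ccl, Cxcl, Xcl and Cx3cl genes encode ligands, and Ccr, Cxcr, Xcr and Cx3cr genes encode receptors. Of the 13971 genes that the arrays' probes could be matched to, 53 carried such a symbol, 35 ligands and 18 receptors, on 54 probes. Atypical receptors and ligands under other names were kept apart. Ccl21c, Ccl21d, Ccl26, Ccl27b and Xcr1 had no probe that could be matched to them and were not analysed here.

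The groups were Src-transgenic livers (3 arrays, numbered 1, 3 and 4) and wild-type livers (3 arrays, numbered 1, 2 and 4), all from C57BL/6 mice aged 14 months. The transgene is human c-Src, a tyrosine kinase, under the control of a mouse metallothionein promoter, which is active in liver and is switched further on by zinc; the submitters describe zinc as usually not needed. They gave no carcinogen, and report liver tumours at 20 months in 15% of transgenic mice and in no wild-type mouse. The labels do not say whether a sampled liver held a tumour, whether these mice had zinc, or their sex. Wild-type number 3 and transgenic number 2 gave weak arrays, were left out by the submitters and were not analysed here.

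Chemokines form gradients that guide leukocytes through receptors of the G protein-coupled family. CC ligands mostly attract monocytes, eosinophils, dendritic cells and T cells. CXC ligands fall into those that attract neutrophils through CXCR2, those that interferon gamma induces and that attract T cells through CXCR3, and those that keep lymphoid and stromal tissue in order, such as CXCL12 and CXCL13. In liver, hepatocytes, Kupffer cells, sinusoidal endothelium and stellate cells can all release chemokines, while most receptors are carried by the leukocytes that respond.

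A few facts about the arrays bear on every value. The median signal was 94.8 to 117 on the Src-transgenic arrays and 53.8 to 93.4 on the wild-type arrays, which was levelled by quantile normalization, and 62.6% to 71.7% of probes on an array were above background, a level set from the control spots. After normalization (log2) the lowest signal above background was 5.15, 5.31 and 5.33 on Src-transgenic arrays 1, 3 and 4. It was 5.71, 5.65 and 5.32 on wild-type arrays 1, 2 and 4, so a dim gene could more easily count as above background in Src-transgenic livers. Values below are log2 of the normalized signal, and a difference is Src-transgenic minus wild-type with its standard error. The mouse Src probe averaged 8.62 ± 0.99 on Src-transgenic arrays and 6.83 ± 0.33 on wild-type arrays (SD, n = 3 each), a difference of 1.79 ± 0.51 with every Src-transgenic array higher (limma, adjusted p = 0.69; exact permutation test, two-sided, p = 0.1, the smallest that 3 against 3 allows), and Mt2, a metallothionein, differed by 4.88 ± 0.44. Src-transgenic array 4 stood apart: Uty (5.18), Eif2s3y (4.94) and Ddx3y (2.74), which are Y-linked, were above background on the other 5 arrays and not on this one, while Kdm5d, also Y-linked, was at 9.03 there. Hepatocyte markers were above background on all 6 arrays for 8 of 8 tested genes, as the liver label has it, with a summed signal of 208339 to 224572 on Src-transgenic arrays and 199305 to 227142 on wild-type arrays. Local patches of raised or lowered signal covered 0.726% to 7.55% of an array's probes, and 12 of the 53 genes lay in one on at least 1 array. Correction of patches (local correction) shifted every spot on every array by the departure of its neighbours, in a patch or not.

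No chemokine or receptor gene passed the test at an adjusted p under 0.05, and neither did any of the 34175 features on the arrays (0%, limma with Benjamini-Hochberg adjustment). At an unadjusted p under 0.05, 2 of 53 genes were higher in Src-transgenic livers and none was lower (3.77%), against 7.09% of all features, 4.37% higher and 2.72% lower, and 6.38% of named genes, 3.86% higher and 2.52% lower. For 6 genes (11.3%), each higher in Src-transgenic livers, no value of one group lay within the other, against 16% of all features, 10.1% higher and 5.9% lower, and 15.5% of named genes, 8.86% higher and 6.64% lower. So neither share of the chemokine genes, taken over both directions, was above that of the arrays as a whole. The 6 genes were the receptors Ccr4, Cx3cr1, Ccr1 and Ccr9 and the ligands Cxcl3 and Ccl1. Of all 53, 31 had a positive and 22 a negative difference with a median of 0.21, where 51.7% of all features were positive with a median of 0.02. Only 27 of the genes were above background on all 6 arrays; 18 were on some and 8 on none, and among the 27 the median was 0.03. With 3 mice a group, each p-value sets a difference against the spread between these mice, which limma moderates by the spread of all features. Spread between mice and spread between arrays cannot be told apart.

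The neutrophil-attracting ligands Cxcl1, Cxcl2 and Cxcl3 had the highest fitted differences of the CXC ligands, and they sit beside each other on chromosome 5 with Cxcl15 in between. Their promoters are shown because each window holds a kappaB match, the letters to which NF-kappaB, the factor through which TNF and interleukin 1 act on chemokine genes, is known to bind. The windows run from 250 bases before to 50 bases after the start of transcription, are on the plus strand of GRCm38.p6 and come from RefSeq, and capitals mark every match, on either strand, to GGG followed after any 3 bases by TTCC.

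Cxcl1 (chr5:90890995-90891294): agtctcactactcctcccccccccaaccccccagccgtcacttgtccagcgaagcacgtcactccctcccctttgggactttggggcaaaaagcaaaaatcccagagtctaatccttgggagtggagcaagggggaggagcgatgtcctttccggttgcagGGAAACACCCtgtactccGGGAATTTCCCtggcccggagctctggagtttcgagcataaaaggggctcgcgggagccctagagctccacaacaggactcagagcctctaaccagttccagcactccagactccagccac
Cxcl2 (chr5:90903649-90903948): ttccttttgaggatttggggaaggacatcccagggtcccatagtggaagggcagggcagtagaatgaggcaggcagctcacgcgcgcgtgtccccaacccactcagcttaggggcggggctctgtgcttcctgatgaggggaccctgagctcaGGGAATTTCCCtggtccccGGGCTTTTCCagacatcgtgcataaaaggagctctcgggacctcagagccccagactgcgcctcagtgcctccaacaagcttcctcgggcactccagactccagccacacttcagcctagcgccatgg
Cxcl3 (chr5:90785851-90786150): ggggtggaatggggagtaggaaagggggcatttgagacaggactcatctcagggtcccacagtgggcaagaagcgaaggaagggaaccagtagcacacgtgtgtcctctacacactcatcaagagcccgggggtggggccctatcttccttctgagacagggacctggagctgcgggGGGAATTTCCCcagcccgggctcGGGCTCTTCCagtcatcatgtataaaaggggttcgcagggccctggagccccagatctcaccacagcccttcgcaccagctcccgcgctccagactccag

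All windows hold the same run, GGGAATTTCCC, in which a match on one strand overlaps a match on the other, beginning 71, 97 and 73 bases before the start in Cxcl1, Cxcl2 and Cxcl3. Each has another match, GGAAACACCC at 89 bases before the start of Cxcl1, GGGCTTTTCC at 78 before that of Cxcl2 and GGGCTCTTCC at 50 before that of Cxcl3. Of the 32851 windows of this length in the table, 1825 (5.56%) hold the motif; of the 53 genes, 40 had a window and 9 of those held it, the others being Ccl1, Ccl9, Ccl20, Ccr3, Ccr6 and Cxcl10. The AP-1 motif TGANTCA was in 8 of the 40 genes, among them Ccr4, Cxcl9 and Cxcl10 (7.81% of all windows). A match describes letters only and says nothing of binding in these livers.

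Cxcl1, the mouse neutrophil attractant closest to human CXCL1, was at 9.67, 9.50 and 7.38 in Src-transgenic livers, against 7.55, 7.86 and 7.00 in wild-type livers. High signal on Src-transgenic arrays 1 and 3 carried the difference, while array 4 lay inside the wild-type range. The fitted difference was 1.38 ± 0.65 (2.60-fold; adjusted p = 0.69), with a 95% interval of -0.19 to 2.95, and it was 0.97 without Src-transgenic array 1, 1.05 without array 3 and 2.12 without array 4. Cxcl3, another CXCR2 ligand, was at 4.71, 4.66 and 7.32 in Src-transgenic livers, against 4.20, 4.16 and 3.91 in wild-type livers, and was above background on Src-transgenic array 4 alone, inside a patch. Its groups did not overlap, but without that array the fitted difference of 1.48 ± 0.73 (adjusted p = 0.69) was 0.60, and against the background level it was at least 1.00-fold higher, a bound that takes in no change. Cxcl2, also a CXCR2 ligand, was above background on Src-transgenic array 3 alone, again in a patch: 4.15, 6.52 and 3.40 in Src-transgenic livers, against 4.56, 3.31 and 3.52 in wild-type livers. Its difference of 0.89 ± 0.83 was -0.02 without that array. So each of these 3 neighbouring genes was brightest on a Src-transgenic array, but not on the same one: Cxcl1 on 1, Cxcl2 on 3 and Cxcl3 on 4. Cxcl5 (-0.23 ± 0.28) and Cxcl15, a chemokine first described in mouse lung (-0.38 ± 0.30), were near background. Of their receptors, Cxcr2 was above background on all 3 Src-transgenic arrays and 1 wild-type array, at 5.98, 5.94 and 5.73 in Src-transgenic livers, against 5.34, 5.08 and 6.08 in wild-type livers, so the groups overlapped. Cxcr1 had 2 probes, above background on 2 arrays and on 1, with differences of 0.81 ± 0.58 and 1.60 ± 0.85, both positive. In the second, Src-transgenic array 3 stood out: 4.06, 6.92 and 3.70 in Src-transgenic livers, against 3.39, 3.55 and 2.96 in wild-type livers. Neutrophil markers summed to 734 to 1151 in Src-transgenic livers and 623 to 991 in wild-type livers, with Camp, Mpo and Mmp9 of the 9 tested not above background on any array; their part in the Cxcl1 values was not tested. In whole liver, fewer cells of a type and less RNA per cell cannot be told apart.

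**Figure D1:**
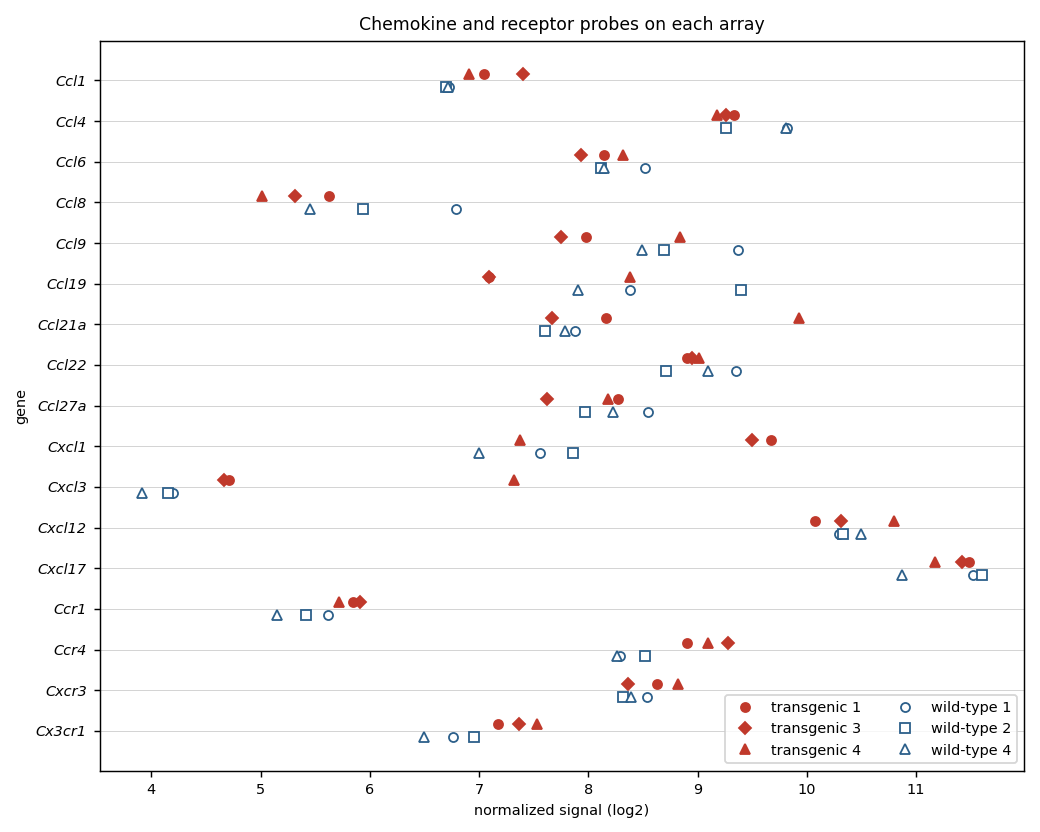
Log2 normalized signal on each array for 17 genes that are among the 8 with the smallest p or the 12 brightest. Filled red points, above, are the 3 Src-transgenic arrays and open blue points, below, the 3 wild-type arrays, so the separated groups of Ccr4 and Cx3cr1 can be set against the single outlying arrays of Cxcl3, Ccl21a and Ccl19.

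Among the receptors most differences were positive. Of 18 receptors, 15 had a positive difference (median 0.37), against 16 of 35 ligands (median -0.06). Only 5 receptors, Ccr4 and Cx3cr1 among them, were above background on all 6 arrays, and these 5 were all positive. Set against the wild-type mean of each gene, the median receptor was at 0.19, 0.45 and 0.41 on the Src-transgenic arrays and at 0.04, 0.09 and -0.16 on the wild-type arrays. With any 1 array left out the median difference was 0.30 to 0.48 for receptors and -0.13 to 0.05 for ligands. By array, the median ligand was at 0.02, -0.25 and -0.002 on Src-transgenic arrays, against 0.23, -0.14 and -0.12 on wild-type arrays. Over all features the medians were 0.08, -0.04 and -0.02 on Src-transgenic arrays and 0.08, -0.02 and -0.09 on wild-type arrays. The receptor medians of the groups did not overlap, while those of the ligands and of all features did. With an offset of 50, which shrinks dim probes, the receptors' median difference was 0.18. The difference between receptors and ligands was not tested. In features above background on all 6 arrays 50.9% were positive and in the others 52.8%. Genes for receptors share leukocytes as a source, so the 18 are not independent measurements.

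Ccr4, the receptor for CCL17 and CCL22 on type 2 helper and regulatory T cells, had the smallest p of the 53 genes. It was at 8.90, 9.28 and 9.10 in Src-transgenic livers, against 8.29, 8.51 and 8.27 in wild-type livers. The lowest Src-transgenic value was above the highest wild-type one, and all 6 were above background. The difference was 0.74 ± 0.20 (1.67-fold; 95% interval 0.25 to 1.22; adjusted p = 0.69), and it was 0.64 to 0.83 with any 1 array left out. Of its ligands, Ccl22, made by macrophages and dendritic cells, was at 8.90, 8.95 and 9.01 in Src-transgenic livers, against 9.35, 8.71 and 9.10 in wild-type livers, a difference of -0.10 ± 0.23 that turned to 0.60 when patches were corrected. Ccl17 was not above background on any array.

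Cx3cr1, the fractalkine receptor of monocytes, macrophages and NK cells, was at 7.18, 7.36 and 7.53 in Src-transgenic livers, against 6.76, 6.95 and 6.50 in wild-type livers. Here too the groups were apart and every array was above background. The difference was 0.62 ± 0.22 (1.54-fold; 95% interval 0.10 to 1.14; adjusted p = 0.69), and 0.50 to 0.72 with any 1 array left out. After local correction the difference was 0.38, though Cx3cr1 lay in no patch. Its ligand Cx3cl1, a chemokine tethered to endothelium, was not above background on any array. Ccr1, a receptor for CCL3, CCL5 and CCL9 on myeloid cells, was at 5.84, 5.91 and 5.72 in Src-transgenic livers, against 5.62, 5.41 and 5.15 in wild-type livers. It was above background on the 3 Src-transgenic arrays and on no wild-type array. The background level differed, at 5.71 and 5.65 on wild-type arrays 1 and 2 against 5.15, 5.31 and 5.33 on Src-transgenic arrays. By any of those Src-transgenic levels, Ccr1 would have been above background on wild-type arrays 1 and 2. Against the background level its group mean was at least 1.20-fold higher, a bound that carries no sampling error. The fitted difference was 0.43 ± 0.21 (adjusted p = 0.69), with a 95% interval of -0.07 to 0.93 that takes in no change. Ccr9, the gut-homing receptor for CCL25, was at 7.10, 7.51 and 7.25 in Src-transgenic livers, against 7.01, 7.02 and 6.90 in wild-type livers, a difference of 0.31 ± 0.20 that was 0.20 without Src-transgenic array 3. Its ligand Ccl25 was at -0.27 ± 0.37.

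Marker genes of leukocytes are given beside these receptors. Dendritic cell markers, 6 tested with 4 positive and Siglech not above background on any array, summed to 1636 to 2138 on Src-transgenic arrays and 1353 to 1529 on wild-type arrays, so they did not overlap. T cell markers, 8 tested with 3 positive, summed to 846 to 1158 on Src-transgenic and 916 to 1096 on wild-type arrays; Cd3e was above background on 1 array only. Monocyte markers summed to 290 to 591 on Src-transgenic and 265 to 394 on wild-type arrays, with F13a1 and Itgam of the 5 tested not above background on any array. Kupffer cell and macrophage markers, 8 of 8 above background on all arrays, summed to 6064 to 11676 on Src-transgenic and 6700 to 8219 on wild-type arrays. NK cell markers, 8 tested with Klrb1c not above background on any array, summed to 456 to 532 on Src-transgenic and 421 to 644 on wild-type arrays. Of these sums only the dendritic one separated the groups as Ccr4, Cx3cr1 and Ccr1 did. Singly, 2 of its 6 genes were separated and higher, as were 10.1% of all features. The part of dendritic cells in these values was not tested.

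**Figure D2:**
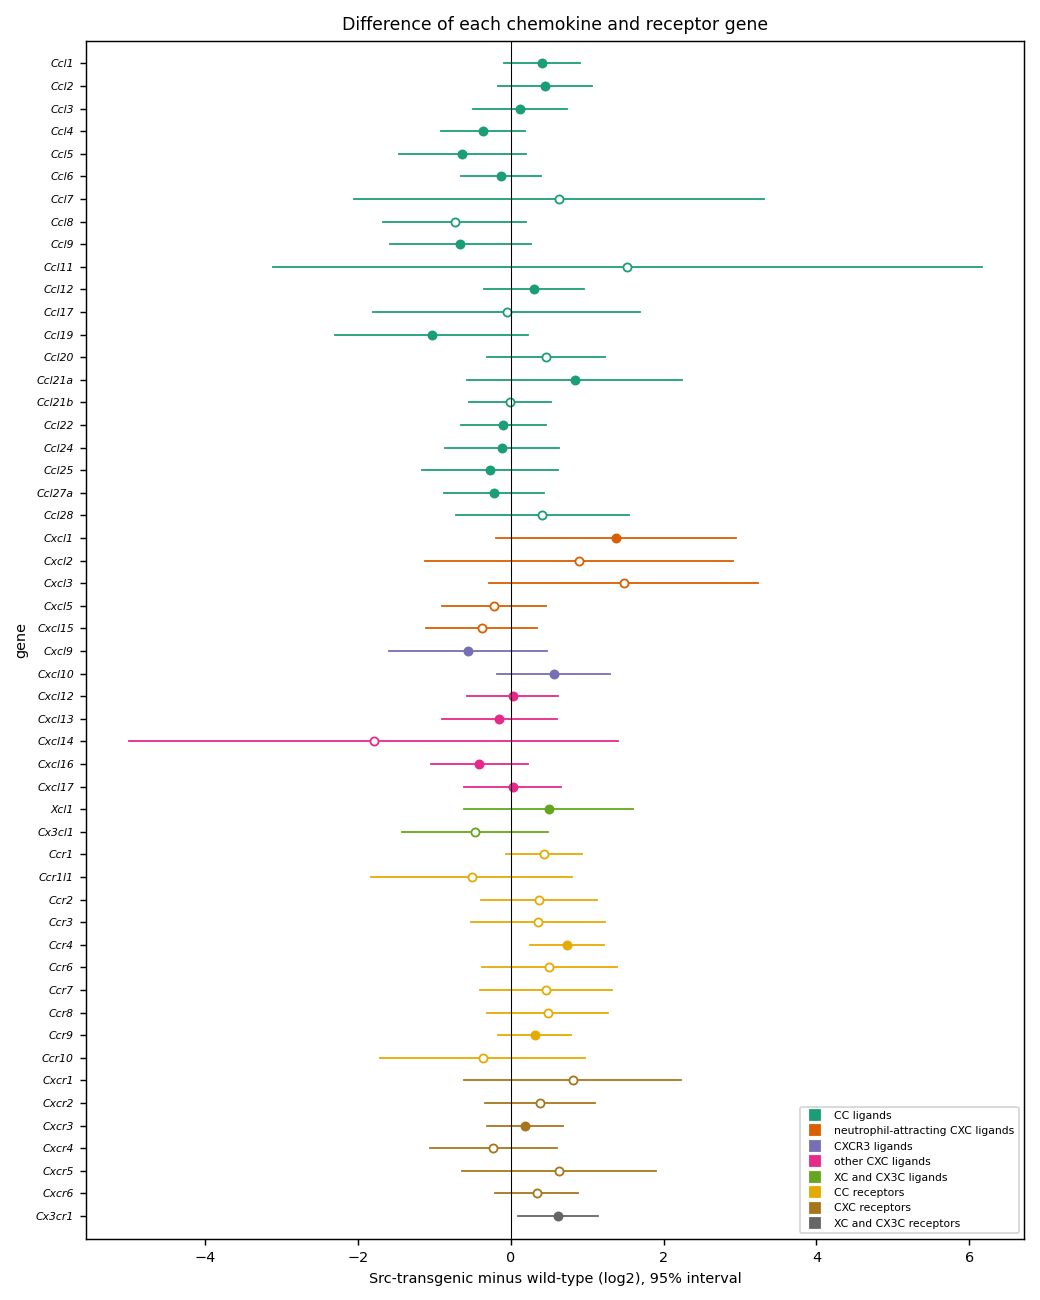
Difference in log2 normalized signal, Src-transgenic minus wild-type, for 52 of the 53 genes with 95% intervals, coloured by role. Filled points are genes above background on all 6 arrays and open points are the others; only the intervals of Ccr4 and Cx3cr1 leave out 0, before any adjustment for the number of features.

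The other receptors were dimmer or flat. Cxcr3, which guides activated T and NK cells, was at 8.62, 8.36 and 8.82 in Src-transgenic livers, against 8.54, 8.32 and 8.39 in wild-type livers, with overlapping groups (0.18 ± 0.21, adjusted p = 0.81; 0.08 without Src-transgenic array 4). Ccr8 was above background on the 3 Src-transgenic arrays and no wild-type array, at 5.32, 5.85 and 5.50 in Src-transgenic livers, against 4.54, 5.63 and 5.05 in wild-type livers, and still overlapped. The background level differed between arrays: 5.32 was above it on Src-transgenic array 1, and 5.63 was not on wild-type array 2. Ccr2, the monocyte receptor for CCL2 (0.37 ± 0.31), and Ccr3, the eosinophil receptor (0.35 ± 0.36), were each above background on 3 Src-transgenic and 2 wild-type arrays. Cxcr6, which binds CXCL16 (0.34 ± 0.22), turned to -0.18 once patches were corrected. Ccr6, Ccr10, Ccr1l1 and Cxcr4, the CXCL12 receptor, were not above background on any array.

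The inflammatory CC ligands lie in a pair of runs on chromosome 11 with 25 other coding genes between them. In the first, in gene order Ccl2, Ccl7, Ccl11, Ccl12, Ccl8 and Ccl1, 5 of 6 genes were positive (median 0.42). In the second, Ccl5, Ccl9, Ccl6, Ccl3 and Ccl4, 1 of 5 was positive (median -0.37), but after patches were corrected 2 of 5 were, with a median of -0.02, against 5 of 6 with a median of 0.37 in the first. No gene of either passed the test, and the difference between the runs was not tested.

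In the first run, Ccl2, the main monocyte attractant, was at 7.97, 7.28 and 7.82 in Src-transgenic livers, against 7.41, 7.04 and 7.30 in wild-type livers. Arrays 1 and 4 of the Src-transgenic group were above every wild-type array and array 3 was not (0.44 ± 0.25, adjusted p = 0.70; 0.30 to 0.65 with any 1 array left out). Ccl1, a ligand of CCR8 from activated T cells, was at 7.05, 7.40 and 6.91 in Src-transgenic livers, against 6.73, 6.70 and 6.72 in wild-type livers. The wild-type values were nearly equal and all below the Src-transgenic ones, by 0.40 ± 0.21 (adjusted p = 0.69), but by 0.26 without Src-transgenic array 3. The difference was 0.20 after local correction, though Ccl1 lay in no patch. Ccl12, a mouse CCR2 ligand, was at 6.88, 7.53 and 6.75 in Src-transgenic livers, against 6.73, 6.59 and 6.92 in wild-type livers, which overlapped. Ccl8, a CCR8 ligand in mouse, was the one gene of the run that was lower: 5.63, 5.32 and 5.01 in Src-transgenic livers, against 6.79, 5.94 and 5.45 in wild-type livers, a difference of -0.74 ± 0.38 (adjusted p = 0.69), and -0.37 without wild-type array 1 to -1.04 without wild-type array 4. Ccl7 and Ccl11 were each above background on 1 array only, singled out here after their values were seen. Ccl7, a monocyte attractant, was at 8.23 on Src-transgenic array 1, inside a patch, and at 4.33 and 4.07 on Src-transgenic arrays 3 and 4, against 5.25, 5.01 and 4.48 in wild-type livers. Ccl11, the eosinophil attractant eotaxin, was at 9.94 on Src-transgenic array 4, in a patch too, and at 3.39 and 2.38 on Src-transgenic arrays 1 and 3, against 3.50, 4.04 and 3.60 in wild-type livers. The fitted differences, 0.63 for Ccl7 and 1.53 for Ccl11, turned to -0.71 and -0.83 without those arrays. So 2 of the 5 positive signs in this run rest on 1 array each.

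In the second run all 5 genes were above background on every array, but Ccl5 and Ccl3 only just on some. Before normalization Ccl5 read 50.4 on Src-transgenic array 3, where the background level was 49.3. Ccl3 read 44.5 on wild-type array 2, where the level was 44.2. Ccl9, made by myeloid cells in rodents, was at 7.97, 7.75 and 8.84 in Src-transgenic livers, against 9.37, 8.70 and 8.49 in wild-type livers, a difference of -0.66 ± 0.38 (adjusted p = 0.70) that was -0.41 without wild-type array 1 and -0.99 without Src-transgenic array 4. Src-transgenic arrays 1 and 3 were below all wild-type arrays and array 4 was not. Ccl5, the T cell and monocyte attractant RANTES, repeated that order with 5.38, 5.34 and 6.36 in Src-transgenic livers, against 6.66, 6.24 and 6.09 in wild-type livers (-0.64 ± 0.34, adjusted p = 0.70; -0.97 without Src-transgenic array 4). Ccl4, a monocyte and T cell attractant, was at 9.33, 9.26 and 9.18 in Src-transgenic livers, against 9.82, 9.26 and 9.81 in wild-type livers. Its difference of -0.37 ± 0.23 turned to 0.61 after local correction, and its spot lay in patches on wild-type arrays 1 and 4. Ccl6, a rodent CCR1 ligand, was at 8.14, 7.94 and 8.32 in Src-transgenic livers, against 8.52, 8.12 and 8.14 in wild-type livers (-0.13 ± 0.22; 0.0017 without wild-type array 1), and Ccl3 differed by 0.12 ± 0.25. All 5 genes of this run overlapped between groups.

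The lymphoid ligands gave opposite signs. Ccl19 and Ccl21a both call CCR7-bearing T cells and dendritic cells, and they are neighbours on chromosome 4. Ccl19 was at 7.09, 7.09 and 8.38 in Src-transgenic livers, against 8.38, 9.40 and 7.90 in wild-type livers. It differed by -1.04 ± 0.52 (2.06-fold lower, adjusted p = 0.69), and by -0.62 without wild-type array 2, which held the highest value. Ccl21a was at 8.16, 7.67 and 9.93 in Src-transgenic livers, against 7.87, 7.60 and 7.79 in wild-type livers, and its difference of 0.83 ± 0.58 was 0.16 without Src-transgenic array 4. Ccl21b, a near-identical copy, read not above background on any array; the probes' sequences were not used here, so how far these probes tell the Ccl21 genes apart is uncertain, and the same holds for Ccl27a and Ccl27b. Ccl27a, a skin T cell attractant, was at 8.28, 7.63 and 8.18 in Src-transgenic livers, against 8.54, 7.97 and 8.23 in wild-type livers, with overlap (-0.22 ± 0.27). Cxcl13, the B cell attractant, was at 6.68, 6.43 and 7.29 in Src-transgenic livers, against 7.07, 7.23 and 6.56 in wild-type livers (-0.15 ± 0.31). Their receptors Ccr7 and Cxcr5 were highest on Src-transgenic array 4, at 5.95 and 7.23, and Ccr7 was above background on that array alone. The differences, 0.46 ± 0.36 for Ccr7 and 0.62 ± 0.52 for Cxcr5, were 0.096 and 0.11 without it. Of the remaining CC ligands, Ccl24, an eotaxin, differed by -0.12 ± 0.31; Ccl28, of mucosal epithelium, was above background on 2 Src-transgenic arrays only; and Ccl20, the CCR6 ligand, on no array.

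Single arrays marked out several of these genes. On Src-transgenic array 4, 6 of the 53 genes were above the next highest array by more than 1 on the log2 scale: Ccl11, Ccl21a, Ccr7, Cxcl3, Cxcr5 and Xcl1. That is 11.3% of the genes, where 2.6% of all features were so raised on that array. Counting every array, 9 of 53 genes (17.0%) had such a single high array, against 12.5% of all features, the others being Ccl7 on Src-transgenic array 1, Cxcl2 on Src-transgenic array 3 and Ccl19 on wild-type array 2. Ccl11 and Cxcl3 lay in patches on Src-transgenic array 4, and the other 4 genes did not lie in one there. On that array Kupffer cell and macrophage markers summed to 11676, monocyte markers to 591, neutrophil markers to 1151 and dendritic cell markers to 2138, each the highest of the 6 arrays, while T cell markers summed to 846, the lowest, and B cell markers to 1365. The part of these cells in the values was not tested.

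**Figure D3:**
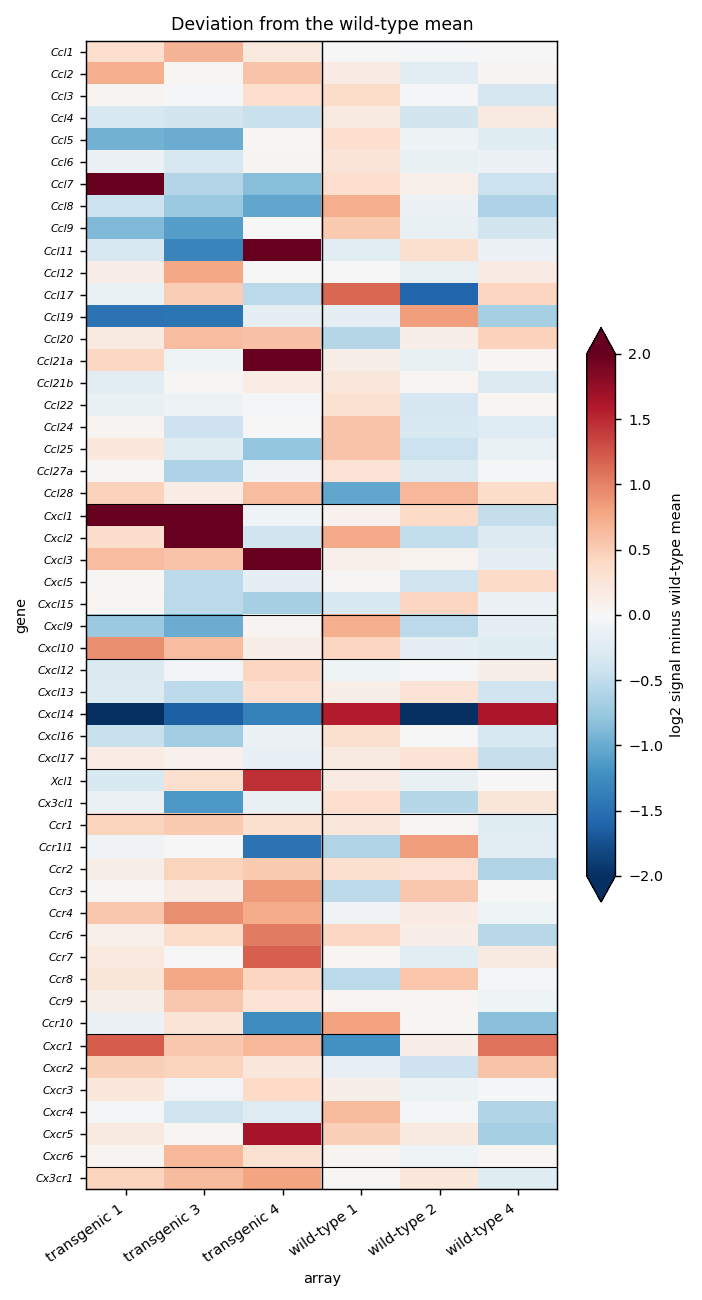
Log2 normalized signal of 52 genes on each array minus each gene's mean over the wild-type arrays, with Src-transgenic arrays 1, 3 and 4 at the left and wild-type arrays 1, 2 and 4 at the right; colour stops at 2 in either direction. Src-transgenic array 4 holds 6 of the 9 genes with a single high array, and most receptors are above their wild-type mean on the Src-transgenic arrays.

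The CXCR3 ligands that interferon gamma induces had differences of opposite sign, and neither passed the test. Cxcl10 was at 8.29, 7.99 and 7.50 in Src-transgenic livers, against 7.80, 7.19 and 7.12 in wild-type livers, a difference of 0.56 ± 0.31 (adjusted p = 0.70). After local correction it was 0.03, and its spot lay in a patch on Src-transgenic array 3. Cxcl9 was at 7.65, 7.40 and 8.46 in Src-transgenic livers, against 9.12, 7.86 and 8.21 in wild-type livers, a difference of -0.56 ± 0.43 (adjusted p = 0.74) that was -0.20 without wild-type array 1 and -0.87 without Src-transgenic array 4. Both overlapped between groups. Of the 15 interferon gamma axis genes tested, 7 were positive and 8 negative with a median of -0.03, and none reached an unadjusted p under 0.05. The smallest p-values were those of Irgm1, a GTPase (-0.54 ± 0.27, but 0.30 after patches were corrected), Tap1, a peptide transporter (-0.70 ± 0.35), and Psmb9, an immunoproteasome subunit (-0.51 ± 0.26). Ifng itself was not above background on any array.

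Cxcl17 and Cxcl12 gave signal far above background on every array, and for neither was a difference detectable. Cxcl17, a mucosal chemokine, was at 11.48, 11.42 and 11.17 in Src-transgenic livers, against 11.52, 11.61 and 10.87 in wild-type livers (0.03 ± 0.26; 95% interval -0.61 to 0.66). Cxcl12, the CXCR4 ligand of stromal and endothelial cells, was at 10.07, 10.31 and 10.80 in Src-transgenic livers, against 10.29, 10.33 and 10.49 in wild-type livers (0.02 ± 0.25; 95% interval -0.57 to 0.62). The groups overlapped for both, and both signs turned under median scaling, to -0.27 and -0.18. Cxcl16, a membrane-bound ligand of macrophages, was at 6.90, 6.65 and 7.23 in Src-transgenic livers, against 7.67, 7.35 and 7.02 in wild-type livers (-0.42 ± 0.26, adjusted p = 0.71; -0.26 without wild-type array 1). Cxcl14, of epithelial cells, was at 3.16, 3.95 and 4.24 in Src-transgenic livers, against 7.15, 2.38 and 7.21 in wild-type livers. It was above background on wild-type arrays 1 and 4 alone, in a patch on array 4, and the groups overlapped. Its fitted difference was -0.99 without wild-type array 4 and -3.40 without wild-type array 2, so no fold is given. Xcl1, which attracts cross-presenting dendritic cells, was at 5.70, 6.34 and 7.48 in Src-transgenic livers, against 6.18, 5.86 and 6.01 in wild-type livers, and its difference of 0.49 ± 0.46 was 0.007 without Src-transgenic array 4. The difference turned to -0.13 after local correction, and the spot of Xcl1 lay in a patch on Src-transgenic array 3.

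By position, the receptors are concentrated on chromosome 9, which carries 11 of the 18. Of these 11, 10 were positive (median 0.37), the exception being Ccr1l1, which was not above background on any array. The 9 genes on chromosome 5, all ligands, had 4 positive, and the 4 on chromosome 8 (Ccl17, Ccl22, Ccl25 and Cx3cl1) had none. Of the receptors on other chromosomes, Cxcr1 (0.81), Ccr6 (0.50), Ccr7 (0.46), Cxcr2 (0.38) and Cxcr3 (0.18) were positive. Ccr10 (-0.37) and Cxcr4 (-0.23) were negative. Genes in a cluster on a chromosome are often of one role, and position was not tested apart from role.

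The genes around the chemokines were read from the same fit, in lists chosen with earlier results of these data known. Again none passed at an adjusted p under 0.05. Of 16 leukocyte adhesion genes, 11 were positive (median 0.13); 3 were higher at an unadjusted p under 0.05 and none lower, where 4.37% and 2.72% of all features were, and for 5, all higher, the groups did not overlap, where 10.1% of all features were so separated and higher. Selp, P-selectin of activated endothelium and platelets, was at 7.67, 7.37 and 7.54 in Src-transgenic livers, against 6.96, 6.82 and 6.78 in wild-type livers (0.68 ± 0.19, adjusted p = 0.69). Vcam1, which holds monocytes and lymphocytes through integrin alpha 4, was at 7.76, 8.08 and 9.07 in Src-transgenic livers, against 7.06, 6.95 and 7.28 in wild-type livers (1.21 ± 0.37, adjusted p = 0.69). Madcam1, the gut-homing addressin, was at 6.32, 6.65 and 7.02 in Src-transgenic livers, against 5.21, 5.88 and 6.02 in wild-type livers (0.96 ± 0.31, adjusted p = 0.69). For all of these every Src-transgenic array was above every wild-type array.

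Of 21 NF-kappaB genes and cytokines that induce chemokines, 9 were positive and 12 negative (median -0.08), and 2 were lower at an unadjusted p under 0.05, as were 2.72% of all features. Ltb, lymphotoxin beta, which maintains lymphoid tissue, was at 5.62, 5.03 and 5.92 in Src-transgenic livers, against 6.58, 7.69 and 9.43 in wild-type livers. Its difference of -2.38 ± 0.72 (adjusted p = 0.69) was -1.33 after local correction, and its spot lay in patches on Src-transgenic array 3 and wild-type array 4. Tnf was at 5.56, 5.25 and 5.52 in Src-transgenic livers, against 5.61, 6.64 and 6.79 in wild-type livers (-0.90 ± 0.35, adjusted p = 0.69), above background on 2 arrays of each group. Il18, an inducer of interferon gamma, was at 9.53, 9.30 and 9.62 in Src-transgenic livers, against 10.01, 9.69 and 10.07 in wild-type livers (-0.44 ± 0.21, adjusted p = 0.69). In these 3 genes the Src-transgenic values were all below the wild-type values, as in 5.9% of all features.

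Of 18 genes for signalling below the receptors, 3 were positive and 15 negative (median -0.19), none at an unadjusted p under 0.05. Those with the smallest p were Grk6, a receptor kinase (-0.39 ± 0.25), Rac2, a GTPase of leukocyte movement (-0.38 ± 0.27), and Vav1, which was not above background on any array. Of 10 atypical receptors and other ligands, 5 were positive and 5 negative (median -0.005), with Ppbp, a platelet chemokine, at 0.55 ± 0.28, Ccrl2, a chemerin-binding receptor, at 0.45 ± 0.31, and Dpp4, a peptidase that trims chemokines, at -0.34 ± 0.27. No difference between these lists and the receptors was tested.

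**Figure D4:**
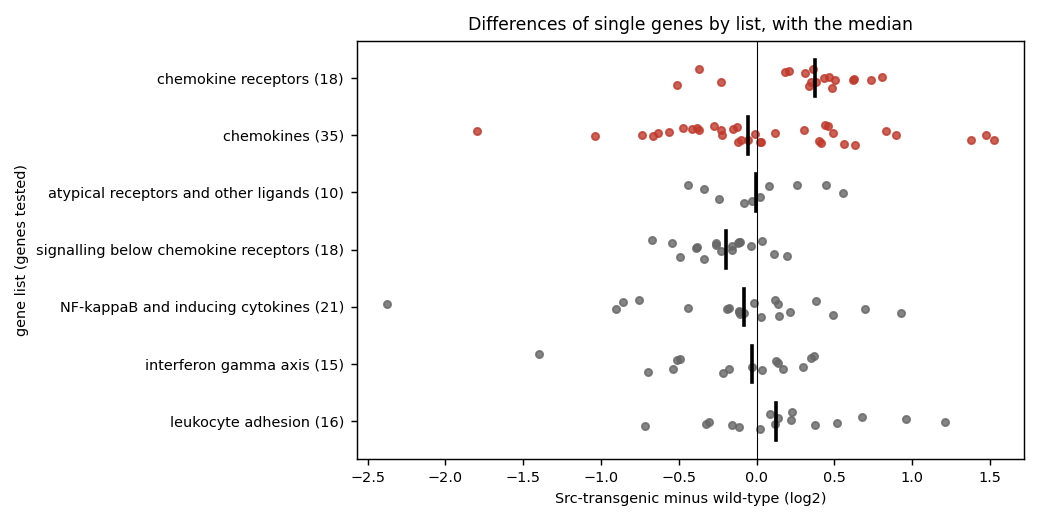
Difference in log2 normalized signal, Src-transgenic minus wild-type, of every gene in the chemokine receptors, the chemokine ligands and the 5 lists of related genes; bars mark medians. The receptors' median is 0.37 and that of the ligands -0.06, while the signalling genes lie mostly below 0.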

How the data were processed

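RNA from 6 livers (3 Src-transgenic, 3 wild-type) was amplified to biotin-labelled cRNA and hybridized to 1-colour arrays, per the labels' protocols; scanner and image software: not given in the sources used here. Per the file headers, the deposited intensity of a spot is linear and background-corrected, and 27 to 103 probes an array were at or below 0. Each array held 35587 spots; 620 control spots were left out. The authors' value table held a median-scaled intensity. It equalled the scaled value deposited for each array within 1e-06 for 34967 probes.

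On each array the 1st percentile of positive signals (4.72 to 5.75) served as a floor, and log2 values were quantile normalized. Probe accessions, without versions, were matched to the RefSeq table of GRCm38.p6, for symbols and gene order only: 14763 probes matched 13971 genes and 20204 stayed unnamed. The brightest probe stood for a gene. Above background means more than 3 scaled median absolute deviations over the median of 570 control spots (33.0 to 50.6), a level set after the data were seen. A bound ("at least") sets the brighter group's mean against a raised value of the dim one, per array the lowest signal called above background unless the dim probe's own value is higher. A patch is a run of spots within 4 rows and columns whose median departed by over 0.5 (log2). Local correction took the median departure around a spot from its value, for every spot on every array, inside a patch or not.

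The test was two-sided, by lmFit and eBayes of limma 3.58.1 (R 4.3.3), and its p-values were adjusted over 34175 features by Benjamini-Hochberg; standard errors are limma's, and intervals 95%. The number of arrays limits the precision. The steps were tested on simulated data, and 18 alternatives were run. The genes, lists and rules were chosen with earlier results of these data known. Given in full were the 8 genes with the smallest p and the 12 brightest, except 1 gene that is counted among the 53 but not reported here by itself; other values are short, and those of Ccl2, Ccl5, Ccl7, Ccl11, Ccl12, Ccr8, Ccr9, Cxcr2, Cxcl2, Cxcl9, Cxcl10, Cxcl13, Cxcl14, Cxcl16 and Xcl1 were written out after they were seen. Of the lists, up to 3 genes with the smallest p were named. The labels do not say what a number shared by arrays of both groups (1 and 4) means. Deviations of same-numbered arrays correlated at 0.060 and 0.058, the highest of all pairs. The other pairs were at -0.066 to 0.018, and whether same-numbered arrays share a batch or litter was not tested.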

Additional observations from a re-analysis of the deposited data

How the results depend on the processing

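No chemokine or receptor gene passed at an adjusted p under 0.05 under any of the 18 alternatives. Of 539 recomputed values of the counts, the medians and 21 genes, 29 counts or medians moved and 21 single-gene differences turned sign. Over all 53 genes 45 of 844 recomputed differences turned sign, in 21 genes. Over all features the count of 0 (2424 at an unadjusted p under 0.05) was 1 with every probe kept separately, and 0 to 1 with 1 array left out. Scaling set the split of features at an unadjusted p under 0.05: 1493 higher and 931 lower became 943 and 1312 under median scaling, which moved the median of all features to -0.08, 943 and 1309 in the authors' value table, 1094 and 1290 under 75th percentile scaling and 1235 and 1357 after local correction of patches.

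Of the 53 genes, those higher at an unadjusted p under 0.05 (2) numbered 4 with array weights, and those lower (0) numbered 1 with array weights and 1 after local correction. Of all 34175 features, 1641 were higher and 1143 lower with array weights, and 1235 and 1357 after local correction. With 1 array left out the genes ranged from 2 to 4 higher and 0 to 3 lower, against 953 to 1560 and 641 to 1331 of all features. Genes with groups that did not overlap then ranged from 8 to 10 higher and 0 to 6 lower, and local correction gave 9 higher and 2 lower. Fewer arrays make overlap less likely, and non-overlap over all features was not counted under these settings, so nothing is read from these counts. The replicate block gave 0 higher and 2 lower, and 679 and 669 among all features. The labels name no pairing of same-numbered arrays, so the block rests on the numbers alone.

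The median of the genes (0.21) was 0.027 over probes above background on all 6 arrays, 0.10 after local correction and 0.065 to 0.20 with 1 array left out. Receptors with a positive difference (15 of 18) were 5 of 5 under both filters on dim probes, and positive ligands (16 of 35) were 10 of 22 above background and 8 of 17 above the median probe, since fewer genes were tested. The receptors' median (0.37) was 0.18 with an offset of 50, which shrinks dim probes.

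The causes of turned signs were not tested. Cxcl17 was at -0.27 under median scaling and in the authors' table, -0.25 under 75th percentile scaling, -0.012 with array weights, -0.34 after local correction and -0.20 to 0.16 with 1 array left out. Cxcl12 was at -0.18, -0.18, -0.16, -0.050, -0.092 and -0.18 to 0.18 in the same order of settings. After local correction Ccl22 was at 0.60 and Ccl4 at 0.61. With 1 array left out the ranges were -0.83 to 2.95 for Ccl11, -0.27 to 0.052 for Ccl22, -0.22 to 0.0017 for Ccl6 and -0.71 to 1.37 for Ccl7. Signs also turned under 4 alternatives in Ccl17, 3 in Ccl21b, 2 each in Ccl24, Cxcl13, Cxcl2 and Ccr10, and 1 each in Ccl12, Ccl25, Ccl28, Ccl3, Cxcr4, Cxcr6 and Xcl1. Dim probes limit what can be read: 26 of the 53 genes were not above background on all arrays.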
